A study of Mus musculus with 2 samples.

Results

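The glutathione peroxidases Gpx1, Gpx2, Gpx3, Gpx4, Gpx7 and Gpx8, the omega-class glutathione transferase Gsto1 and the metallothioneins Mt1, Mt2 and Mt3 were chosen by name. All 10 were rows of the expression table, which held 17408 genes. They were measured in 7023 single cells, taken without sorting on day 16 of STEMCCA reprogramming in mouse, by 3′ droplet sequencing. In this system doxycycline switches on Pou5f1, Sox2, Klf4 and Myc from a single cassette in embryonic fibroblasts. All cells had been kept with doxycycline and ascorbic acid in mouse embryonic stem cell medium with serum and LIF. Both libraries belonged to 1 group with no control arm, and replicate 1 held 3109 cells and replicate 2 held 3914. The study describes a pair of independent transgenic STEMCCA mouse systems behind these data, but the labels give neither library's system, so the libraries may be 1 from each and differ in system as well as in handling. Nothing says whether several cultures or embryos were used. The p-values measure only how well differences between cell states repeated in these 2 libraries, and that spread may be technical.

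Glutathione peroxidases reduce hydrogen peroxide and lipid peroxides with glutathione as the electron donor. Metallothioneins are small cysteine-rich proteins that bind zinc, copper and cadmium, and their genes are known to be induced by metals through the zinc-sensing transcription factor MTF1. Gpx4, which clears phospholipid peroxides from membranes and so restrains ferroptosis, is needed for mouse embryogenesis. Metallothionein genes are well known to respond to metals, glucocorticoids and oxidative stress in cultured fibroblasts.

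Cells were grouped into 18 states by clustering on other genes, with these 10 genes, related pathway genes, sex-linked genes and the reprogramming factors left out. A total of 14 states had at least 30 cells in both libraries, and they held 97.3% and 98.6% of the cells of replicates 1 and 2. States were given a cell type name only from marker genes. The pluripotent-like state (146 and 390 cells) had all 10 of its markers raised at least 2-fold over the other cells, the myofibroblast-like state 8 of 8, the mitotic-like state 8 of 8, the S-phase-like state 8 of 9, a second S-phase-like state led by Cd24a 7 of 9, and the fibroblast-like state 7 of 11. The classes were not exclusive: the myofibroblast-like state also raised 8 of 11 fibroblast markers, and the pluripotent-like state 7 of 8 mitotic markers. The other 8 states in the comparison are called by a leading gene, namely Pcp4, Rarres2, Perp, Dmrtc2, Mmp11, Tcf19, Cytl1 and Cthrc1. An epithelial-like state (64 and 4 cells), a state led by Trf (1 and 42 cells), a state led by Gap43 (16 and 1 cells) and a macrophage-like state (4 and 9 cells) were too small in at least 1 library. Levels are means over cells per 10000 UMIs, the unique molecule counts of a cell. The libraries held 54145377 and 64654306 UMIs in all, and median cells held 15625 and 14292. Pluripotent-like cells were among the deepest at medians of 28768 and 26127, with the Cd24a S-phase-like state at 25164 and 26577. The libraries shared 12 cell barcodes.

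Mt1, Mt2 and Mt3 lie in 1 cluster on the forward strand of chromosome 8. In GENCODE M21 on GRCm38, Mt3 spans chr8:94152607-94154146, Mt2 chr8:94172664-94173568 and Mt1 chr8:94179082-94180327, so that 5514 bases separate the end of Mt2 from the start of Mt1 and 18518 bases separate Mt3 from Mt2. Their upstream sequences are shown because Mt1 and Mt2 moved together over the states and Mt3 did not. Each is the 250 bases before the RefSeq start on GRCm38.p6, forward strand, at chr8:94178839-94179088 for Mt1, chr8:94172368-94172617 for Mt2 and chr8:94152357-94152606 for Mt3. Capitals mark matches on either strand to the metal response element core, TGCACNC or TGCGCNC.
Mt1: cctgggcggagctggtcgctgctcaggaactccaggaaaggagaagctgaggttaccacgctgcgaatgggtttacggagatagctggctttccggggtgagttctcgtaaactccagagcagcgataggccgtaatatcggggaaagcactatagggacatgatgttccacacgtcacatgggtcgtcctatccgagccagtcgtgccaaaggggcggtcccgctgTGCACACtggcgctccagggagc
Mt2: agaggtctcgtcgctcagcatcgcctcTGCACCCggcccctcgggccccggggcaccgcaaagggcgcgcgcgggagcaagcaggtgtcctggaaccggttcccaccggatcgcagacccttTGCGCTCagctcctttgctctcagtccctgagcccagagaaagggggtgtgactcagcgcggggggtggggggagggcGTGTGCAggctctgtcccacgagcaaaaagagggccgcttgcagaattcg
Mt3: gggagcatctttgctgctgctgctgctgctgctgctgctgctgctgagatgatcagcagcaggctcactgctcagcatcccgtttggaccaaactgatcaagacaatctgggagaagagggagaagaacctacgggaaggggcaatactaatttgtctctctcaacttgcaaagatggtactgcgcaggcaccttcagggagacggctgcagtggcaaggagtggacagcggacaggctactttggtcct
Counting also the 50 bases after the start, the core was found 3 times at Mt1, 4 times at Mt2 and once at Mt3. Of 32851 windows of this length, 25.7% held at least 1 match, 1.97% at least 3 and 0.517% at least 4. Among the windows of the peroxidases and Gsto1, a single match was found at Gpx7. Within these windows, the antioxidant response core TGACNNNGC, present in 12.4% of all windows, was found at Mt2 alone among the 10 genes. A match is a description of letters and not evidence of a site in use. Other annotated starts of Mt1 lie 122 and 152 bases downstream of the RefSeq start, and other starts of Mt2 46 and 242 bases downstream, so the window does not cover them all. The counts of both cores therefore hold only for the windows at the RefSeq starts, and sequence outside them was not searched.

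In the pluripotent-like state, Gpx4 and Mt2 stood above every other state in both libraries, and Gpx1 and Gpx8 stood below every other state in both libraries. Such positions were common in these data: 17.3% of the 7131 genes with a mean of at least 0.1 were highest in the pluripotent-like state in both libraries and 26.9% were lowest. Of the 10 genes, 9 passed this level filter and Gpx2 did not. In a limma fit of log2(level + 0.1) on state and library, with Benjamini-Hochberg adjustment over all 7131 genes at a threshold of 0.05, 2 of the 9 rose against the mean of the 13 other states (Gpx4 and Mt2) and 5 fell (Gpx1, Gpx3, Gpx7, Gpx8 and Gsto1). Mt1 and Mt3 did not pass. Over all genes tested 32.3% rose and 44.8% fell (33.9% and 40.8% among the 6154 genes that the clustering did not use), so that a call by itself set none of these genes apart. The median fold over all genes was -0.13 on the log2 scale. The states were found on the same cells from other genes, so the p-values say how well the 2 libraries repeated a difference, not that the states are independent of it.

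**Figure D1:**
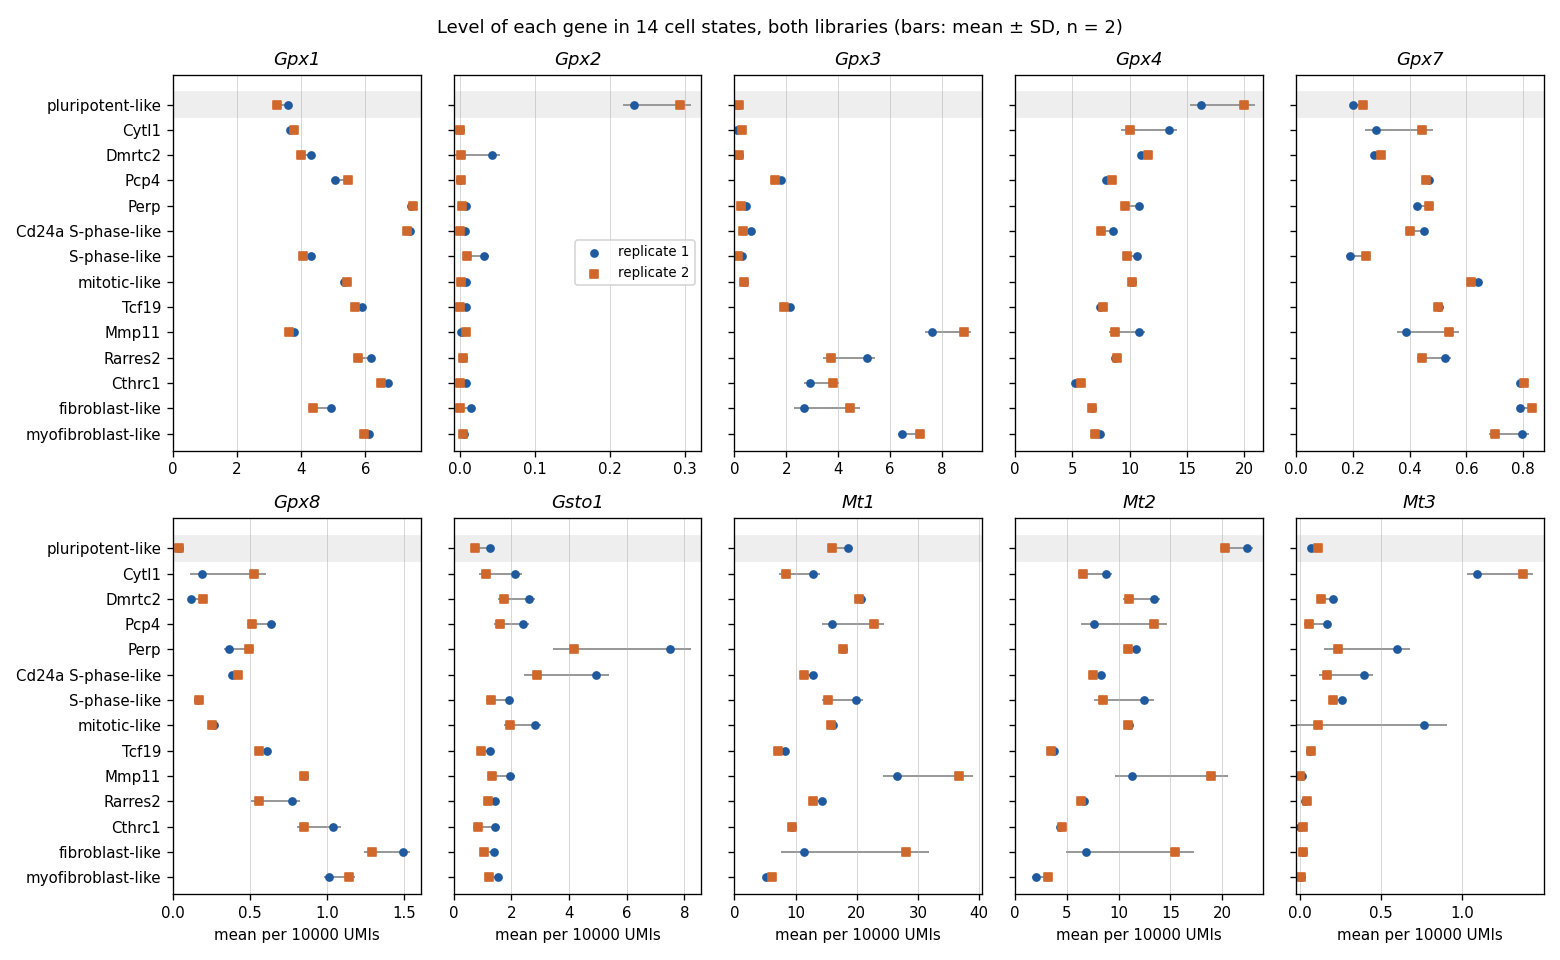
Mean level per 10000 UMIs (linear horizontal axis, own range per panel) of the 10 genes in the 14 cell states, with circles for replicate 1, squares for replicate 2 and grey bars for the mean ± SD (n = 2). Gpx4 and Mt2 are highest in the pluripotent-like row (shaded), Gpx3 peaks in the Mmp11 state at 8.23, and the replicates of Mt1 lie far apart in the fibroblast-like state, at 11.3 and 28.1.

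Gpx4, the phospholipid hydroperoxide glutathione peroxidase and a selenoprotein, was measured at 16.2 and 20.0 per 10000 UMIs in the pluripotent-like state in replicates 1 and 2. The other 13 states ran from 5.24 through a median of 8.68 to 13.4 in replicate 1, and from 5.72 through 8.75 to 11.6 in replicate 2. The pluripotent-like values overlapped with none of them, and the difference on the log2 scale was 1.05 ± 0.10 (SE; adjusted p = 7.6e-09, limma). The next state, Cytl1 at 11.7 ± 2.34 (SD, n = 2), overlapped with the Dmrtc2 state at 11.3 ± 0.434, while the Cthrc1 state was lowest at 5.48 ± 0.336. Next to it at the low end were the fibroblast-like state at 6.75 ± 0.0101 and the myofibroblast-like state at 7.18 ± 0.278.

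Gpx4 also varied among the pluripotent-like cells. A finer clustering, at resolution 2, split these cells into 2 groups of similar depth. One, led by Krt18, Lefty1, Mael and Sycp3 (37 and 224 cells), held Gpx4 at 21.3 and 24.4 per 10000 UMIs. The other, led by Gm10709, Nusap1, Bgn, Myl4 and Col3a1 (109 and 166 cells), held 14.4 and 14.1. Col3a1 is one of the fibroblast markers used here, and the part of fibroblast RNA or of doublets in this group was not tested. Replicate 2 had most of its pluripotent-like cells in the first group and replicate 1 in the second, so the gap between the libraries in the state as a whole, 16.2 against 20.0, goes with different shares of these groups. Mt2 differed little between them, at 22.6 and 20.6 in the first and 22.4 and 20.0 in the second. These groups were cut from the same cells and looked at after their values were seen, so they are given as a description with no test. GENCODE holds 2 near copies of the 3′ end of Gpx4, the pseudogene Gpx4-ps2 with 99.8% identity over 400 bases and AC122253.3 with 96.3% over 216, and neither is in the table. Reads that fit both may have been lost from Gpx4, so its level is uncertain as an absolute value.

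Gpx1, the abundant cytosolic peroxidase for hydrogen peroxide, was measured at 3.59 and 3.24 in the pluripotent-like state. The others ran from 3.65 through 5.33 to 7.43 in replicate 1 and from 3.63 through 5.45 to 7.49 in replicate 2. All 13 were higher in both libraries, though the Cytl1 state at 3.72 ± 0.101 and the Mmp11 state at 3.70 ± 0.0952 came close. In the finer clustering, the pluripotent-like group led by Krt18 held Gpx1 at 2.93 in each library. The group led by Gm10709 held 3.81 and 3.66, inside the range of the other states, so the lowest position did not hold for all pluripotent-like cells. The difference was -0.61 ± 0.07 on the log2 scale (adjusted p = 5.6e-08, limma). Gpx1 was highest in the Perp state at 7.46 ± 0.0408 and in the Cd24a S-phase-like state at 7.34 ± 0.0725. It had the most repeatable order of all 10 genes: 8 of its 13 pairs of neighbouring states did not overlap between the libraries. Over all non-pluripotent states its range was small, at 0.99 on the log2 scale.

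Gpx2, the peroxidase known from the gut epithelium, was found in few cells and was too low on average to be tested. In replicate 1, 755 of its 915 UMIs came from the 64 epithelial-like cells, which is 82.5% (exact 95% interval 79.9% to 84.9%). Its level there was 5.15 per 10000 UMIs (counting interval 4.79 to 5.53). In replicate 2 the epithelial-like state had only 4 cells with 5 Gpx2 UMIs, and 326 of the 344 UMIs, 94.8% (91.9% to 96.9%), came from the pluripotent-like state. Pluripotent-like cells held 0.248 (0.203 to 0.301) per 10000 UMIs in replicate 1 and 0.315 (0.282 to 0.351) in replicate 2. All other states together held 0.0114 (0.00855 to 0.0148) and 0.00240 (0.00128 to 0.00410). These intervals cover counting error only.

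Gpx2 was therefore seen at a high level in the epithelial-like cells of replicate 1 and at a low level in the pluripotent-like cells of both libraries. A Gpx2 UMI was present in 82.8% of the epithelial-like cells of replicate 1 and in 37.0% and 39.0% of the pluripotent-like cells. Fibroblast-like cells, which should lack this epithelial gene, had one in 2.42% of cells in replicate 1 and in 0 of 125 cells in replicate 2, where 0 UMIs allow up to 0.0189 per 10000. Median depths were 21445 UMIs in these epithelial-like cells, 28768 and 26127 in pluripotent-like cells, and 13211 and 10862 in fibroblast-like cells. With every cell thinned to 3000 UMIs, the share was 62.5% in the epithelial-like, 4.79% and 9.74% in the pluripotent-like and 0% in the fibroblast-like cells of both libraries. The Cytl1 state had no Gpx2 UMI, which allows up to 0.0279 and 0.0422 per 10000 UMIs in the 2 libraries. Epithelial markers were also raised in the pluripotent-like state, where 11 of them, none at 0, summed to 1.99 and 3.02 per 10000 UMIs. The medians of the other states were 0.231 and 0.193. Only 3 of the 11 markers were tested, and 2 rose. The highest other state reached a sum of 1.31 in replicate 1 and was also far above the median in replicate 2. No other state in the comparison exceeded 0.0427 and 0.00951 for Gpx2 in replicates 1 and 2. A raised marker sum was therefore not always matched by a like Gpx2 level. The part of these markers in the Gpx2 level was not tested. GENCODE holds a pseudogene, Gpx2-ps1, with 100% identity over 84 bases of the Gpx2 end.

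Gpx3, the secreted plasma peroxidase, spanned more between the 13 other states on the log2(level + 0.1) scale, at 4.94, than the other 8 genes tested. The Mmp11 state held 7.62 and 8.84 and the myofibroblast-like state 6.47 and 7.13 per 10000 UMIs, and neither overlapped with the other or with the next. The Rarres2 state followed at 4.42 ± 0.958, the fibroblast-like state at 3.57 ± 1.23 and the Cthrc1 state at 3.36 ± 0.629. At the other end stood the S-phase-like state at 0.220 ± 0.0963, the Cytl1 state at 0.188 ± 0.143, the Dmrtc2 state at 0.183 ± 0.0133 and the pluripotent-like state at 0.159 ± 0.0142. From top to bottom the range was 51.8-fold on the linear scale, where that of Mt3 was wider at 178-fold, from far lower levels.

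In the pluripotent-like state Gpx3 was at 0.149 and 0.169, against a median of 1.79 and 1.56 in the other states, with 12 of 13 states higher in each library. The difference was -2.34 ± 0.22 on the log2 scale (adjusted p = 1.1e-08, limma). The 11 fibroblast markers, summed, moved in the same direction: they were at 9.13% and 9.87% of the other states' median in pluripotent-like cells, and 8 of 9 tested fell. Gpx3 itself was at 8.30% and 10.8% of that median. The part of free RNA in these low values was not tested. With all other cells pooled into 1 profile the difference was -3.29, and with 1 in place of 0.1 added before the log it was -1.18.

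Gpx7 and Gpx8, peroxidases of the endoplasmic reticulum that act beside protein disulfide isomerases in oxidative folding, were highest in the same 3 states but differed below them: the mitotic-like state ranked 4 of 14 for Gpx7 and 11 for Gpx8. Gpx8 was highest in the fibroblast-like state at 1.49 and 1.29 per 10000 UMIs, followed by the myofibroblast-like state at 1.08 ± 0.0930 and the Cthrc1 state at 0.948 ± 0.134. The pluripotent-like state held 0.0408 and 0.0401, which rests on 17 and 42 UMIs. Every other state was at least 0.121 and 0.173 in the 2 libraries. The difference was -2.12 ± 0.17 on the log2 scale (adjusted p = 9.8e-10, limma), and it depends on the value added before the log, at -3.32 with 0.01 and -0.59 with 1. On the linear scale the pluripotent-like level was 6.65% and 7.61% of the other states' median.

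Gpx7 was highest in the same states, at 0.810 ± 0.0294 in the fibroblast-like, 0.795 ± 0.00875 in the Cthrc1 and 0.749 ± 0.0664 in the myofibroblast-like state, which overlapped with each other but not with the mitotic-like state that followed at 0.629 ± 0.0167. The pluripotent-like state held 0.202 and 0.237, and the difference was -0.87 ± 0.10 on the log2 scale (adjusted p = 2.5e-07, limma), or -0.30 with 1 added before the log. The S-phase-like state was as low, at 0.191 and 0.247. A low level of Gpx7 was therefore also measured outside the pluripotent-like state.

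Gsto1, a glutathione transferase of the omega class that reduces dehydroascorbate and glutathione adducts, followed neither pattern. The Perp state held 7.51 and 4.17 per 10000 UMIs, the Cd24a S-phase-like state 4.92 and 2.89, and no other state in the comparison exceeded 2.83. The epithelial-like cells, outside the comparison, were also high at 5.67 in replicate 1 and at 3.71 in the 4 cells of replicate 2. The pluripotent-like state had 1.26 and 0.745 and the difference was -0.84 ± 0.10 on the log2 scale (adjusted p = 2.5e-07, limma). Only 1 pair of neighbours in the order, the Cd24a S-phase-like and the mitotic-like state, did not overlap.

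That overlap goes with a library difference. Gsto1 was lower in replicate 2 than in replicate 1 in 14 of 14 states, with log2 differences from -0.87 to -0.28 and a mean of -0.56. Of the 7131 genes, 2.01% were lower in replicate 2 in every state and 1.02% were higher in every state. No other of the 9 genes did so. The order of the states for Gsto1 was nevertheless alike in the libraries, with a Spearman rho of 0.932 over the 14 states. None of the 9 genes was 2-fold apart between the libraries on average over the states, as were 0.0421% of all genes (3 genes). If the libraries came from different STEMCCA systems, as the study's text allows, system, culture, handling and sequencing cannot be told apart here.

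**Figure D2:**
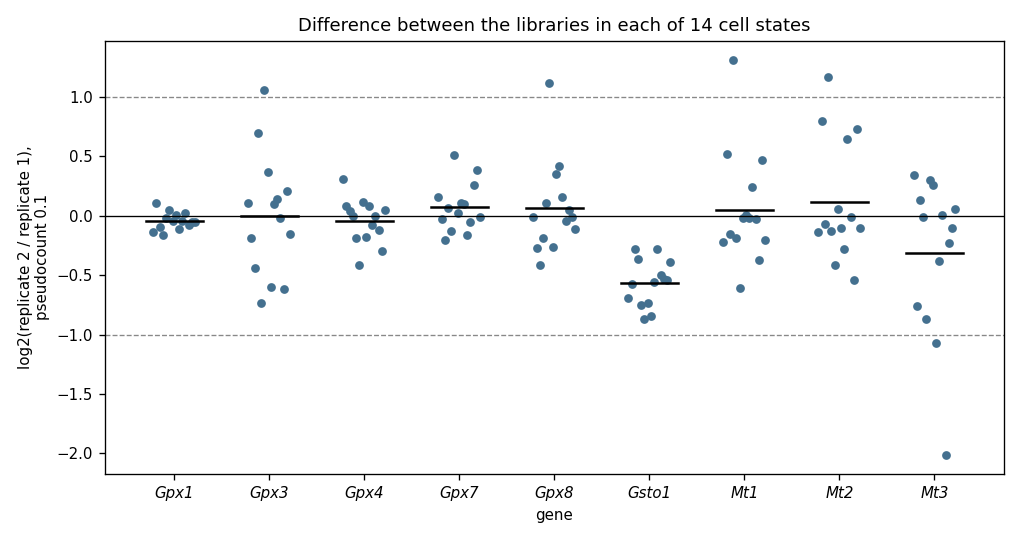
Difference between the libraries for 9 genes, as the log2 ratio of replicate 2 to replicate 1 with 0.1 added to each level, with 1 point per cell state (14 states) and a black line for their mean. All points of Gsto1 lie below 0, and single states pass the dashed 2-fold lines for Gpx3, Gpx8, Mt1, Mt2 and Mt3.

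Single states did differ between the libraries. Mt1 in the fibroblast-like state was 11.3 in replicate 1 and 28.1 in replicate 2, and Mt2 6.82 and 15.4, log2 differences of 1.31 and 1.17. Mt3 in the mitotic-like state was 0.761 and 0.114, a difference of -2.01, and in the Perp state 0.598 and 0.233. Gpx3 and Gpx8 in the small Cytl1 state rose from 10 and 20 UMIs in replicate 1 to 20 and 33 in replicate 2 from fewer cells, log2 differences of 1.06 and 1.12. Statements on these genes in these states rest on 1 library.

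Mt1 and Mt2, the widely expressed metallothioneins, were detected in most cells of every state in the comparison, with at least 1 Mt1 UMI in 86.9% or more of a state's cells and at least 1 Mt2 UMI in 73.9% or more. Mt1 was highest in the Mmp11 state, at 26.5 and 36.7 per 10000 UMIs. It was lowest in the myofibroblast-like state at 5.19 and 6.14, in the Tcf19 state at 7.72 ± 0.772 and in the Cthrc1 state at 9.40 ± 0.0986. The pluripotent-like state lay in the middle, at 18.6 and 16.0, with 3 and 5 of the 13 other states above it. The difference to the other states was 0.31 ± 0.21 on the log2 scale (adjusted p = 0.19, limma), which did not pass the threshold. It was -0.17 (adjusted p = 0.23, limma) with pluripotent-like cells chosen by markers against all other cells, and 0.37 (adjusted p = 0.0043, limma) in cells of 15000 to 30000 UMIs, so the call and the sign rest on the choice of cells. States ranked from 2 to 7 for Mt1, between 20.5 and 17.3, each overlapped with the next.

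Mt2 had its lowest levels in the same states as Mt1, with the myofibroblast-like state at 2.00 and 3.19, the Tcf19 state at 3.63 ± 0.183 and the Cthrc1 state at 4.40 ± 0.125. At the top, in contrast, stood the pluripotent-like state with 22.4 and 20.3. The other states reached 13.4 at most in replicate 1 and 18.9 in replicate 2, with medians of 8.25 and 8.52. The difference was 1.45 ± 0.22 on the log2 scale (adjusted p = 7.9e-06, limma). The next state, Mmp11, held 11.3 and 18.9 and overlapped with the Dmrtc2 state below it.

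The ratio of the pair therefore shifted. In the pluripotent-like state, 1.19 and 1.25 Mt2 UMIs were counted per Mt1 UMI (counting intervals 1.15 to 1.23 and 1.23 to 1.28). In the 13 other states the ratio ran from 0.390 through a median of 0.586 to 0.697 in replicate 1 and from 0.482 through 0.549 to 0.800 in replicate 2, and no other state reached 1. The log2 ratio of the pluripotent-like state was above the mean of the others by 1.12 in replicate 1 and 1.13 in replicate 2. The two-sided exact permutation test by flipping signs gave p = 0.50, the smallest that 2 libraries allow. Both counts come from the same cells and libraries, so a cell's depth cancels from the ratio. The 3′ ends of the pair are 82.6% identical over 92 bases, and how reads that fit both were counted was not examined. Cells with more Mt2 than Mt1 UMIs made up 64.4% and 71.5% of pluripotent-like cells, against at most 18.9% and 23.0% in the 13 other states. This share was counted without thinning, and pluripotent-like cells were among the deepest, so depth does not cancel from it. In the Cd24a S-phase-like state, with median depths of 25164 and 26577 UMIs, the share was 16.7% and 17.2%. Outside the comparison, the epithelial-like cells had 0.732 Mt2 UMIs per Mt1 UMI in replicate 1 and 1.07 (0.839 to 1.38) in the 4 cells of replicate 2.

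**Figure D3:**
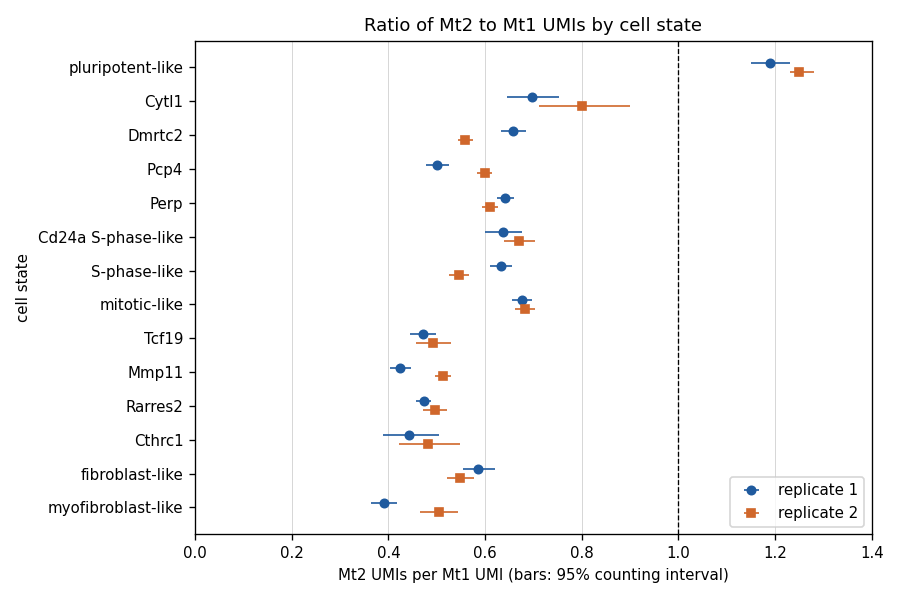
Mt2 UMIs per Mt1 UMI (linear axis from 0) in the 14 cell states, with circles for replicate 1, squares for replicate 2 and bars for the 95% counting interval. The pluripotent-like state lies above the dashed line at equal counts in both libraries, at 1.19 and 1.25, and the 13 other states lie between 0.390 and 0.800.

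Within a state, cells high in Mt1 were high in Mt2. The Pearson r of the log values over cells ran from 0.62 to 0.86 in replicate 1 and from 0.56 to 0.88 in replicate 2 over the 14 states, in cells that share a library and differ in depth. Both genes were also uneven within states. The tenth of cells richest in Mt1 held 51.2% and 37.5% of the Mt1 UMIs of the Mmp11 state and 29.6% and 31.9% of those of the pluripotent-like state. Median cells of the Mmp11 state had 13.4 and 19.8 per 10000 UMIs and the 90th percentile 61.1 and 92.2, while pluripotent-like cells had medians of 15.7 and 13.7 and 90th percentiles of 33.1 and 28.6. The mean of the Mmp11 state was thus raised by its richest cells, and in replicate 1 its median cell was below the median pluripotent-like cell.

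Outside the comparison, the highest Mt1 and Mt2 levels were those of the epithelial-like cells of replicate 1, at 50.7 and 37.2 per 10000 UMIs. The 4 epithelial-like cells of replicate 2 held 11.3 and 11.8. The state led by Trf had means of 45.0 and 24.9 in the 42 cells of replicate 2, but its median cell had 19.5 and 6.20. As each of these rests on 1 library, they are given as values only.

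Mt3, the metallothionein first known from brain as growth inhibitory factor, was low and had an order of its own. Its highest level was in the Cytl1 state, at 1.09 and 1.37 per 10000 UMIs, apart from all other states. The mitotic-like, Perp and Cd24a S-phase-like states followed at 0.438 ± 0.458, 0.415 ± 0.258 and 0.283 ± 0.159, with overlapping values. The fibroblast-like, Cthrc1, Mmp11 and myofibroblast-like states held 0.0210, 0.00998, 0.00856 and 0.00690, from at most 8 UMIs in a library. The pluripotent-like state was in the middle at 0.0686 and 0.113, and the difference of -0.30 ± 0.29 on the log2 scale did not pass the threshold (adjusted p = 0.34, limma). With the other cells pooled it was -0.52 (adjusted p = 0.019, limma) and with cells chosen by markers -0.58 (adjusted p = 0.010, limma). Each of these fits held only 2 states, so their p-values rest mainly on a spread shared over all genes. The states low in Mt3 included the Mmp11 state, which was the highest for Mt1.

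**Figure D4:**
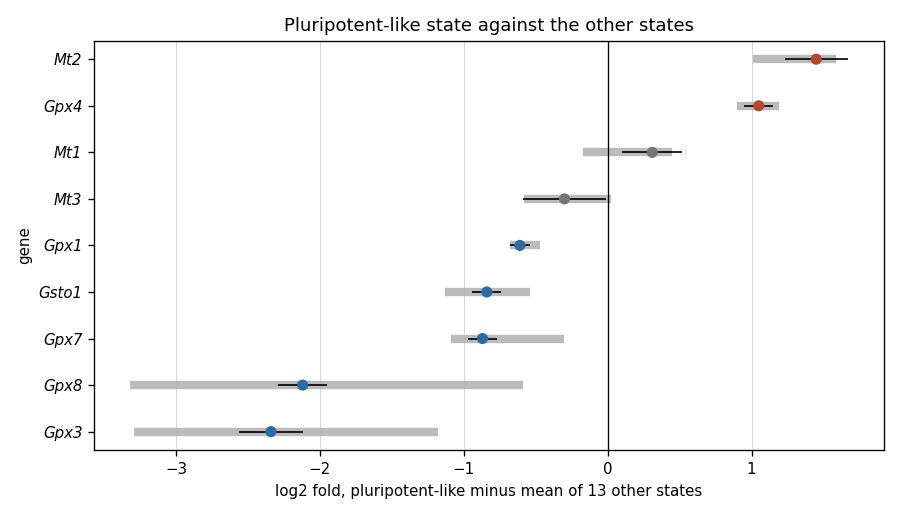
Log2 fold of the pluripotent-like state against the mean of 13 other states for the 9 genes tested, with points in red for genes that rose, blue for those that fell and grey for those not past the threshold. Black bars show ± SE, and grey bands show the range over the 14 fits that used both libraries, without the folds of single libraries. Gpx4 at 1.05 and Mt2 at 1.45 lie to the right of 0, and the bands of Gpx3 and Gpx8 are the widest.

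Leaving the pluripotent-like state aside, all 9 genes varied among the 13 other states by an F test in the same fit (adjusted p from 5.0e-12 for Gpx3 to 1.1e-05 for Mt1, limma). This call was nearly general, at 87.5% of all genes and 85.9% of those outside the clustering. The size of the range was not: Gpx3 spanned 4.94 on the log2 scale, more than 99.7% of the genes tested, and Mt3 spanned 3.63. Gpx8, Mt2, Mt1 and Gsto1 spanned 2.54, 2.49, 2.44 and 2.27, Gpx7 1.52, Gpx4 1.07 and Gpx1 0.99, the last of which was more than 56.8% of genes.

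Over the 14 states the genes fell into sets by the likeness of their levels. Gpx3, Gpx7 and Gpx8 went together, with a Pearson r of log2(level + 0.1) of 0.90 and 0.82 for Gpx3 with Gpx8, 0.84 and 0.86 for Gpx7 with Gpx8, and 0.69 and 0.73 for Gpx3 with Gpx7, in replicates 1 and 2. Gpx4 ran the other way, at -0.83 and -0.86 with Gpx8. Mt1 and Mt2 had an r of 0.90 in each library. Mt3 was negative with Gpx3 at -0.77 and -0.71. These are descriptions over 14 states that share libraries and a scale per cell, and the pluripotent-like state weighs on them.

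**Figure D5:**
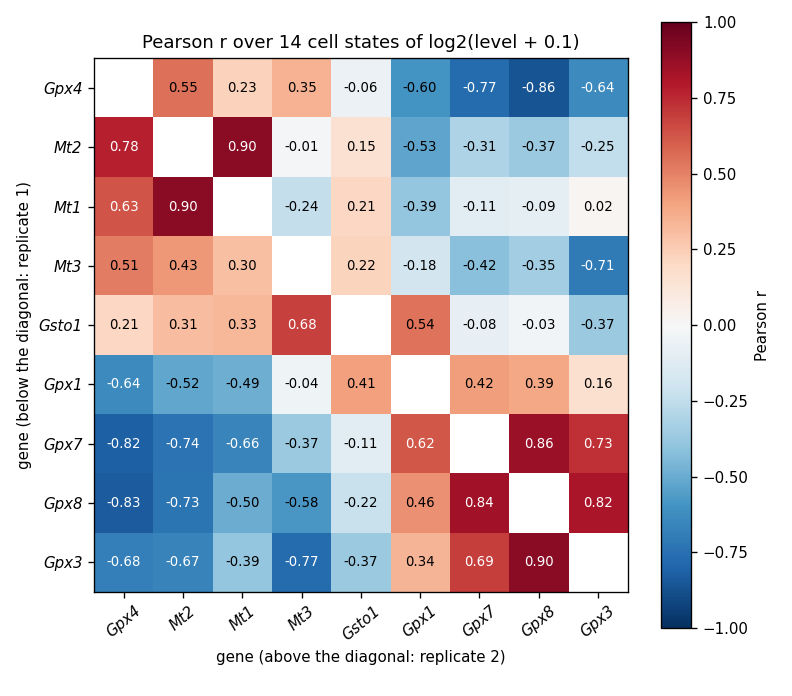
Pearson r of log2(level + 0.1) over 14 cell states for each pair of the 9 genes, below the diagonal in replicate 1 and above it in replicate 2, on a colour scale from -1 (blue) to 1 (red). Gpx7, Gpx8 and Gpx3 form a red block at the lower right and are blue against Gpx4, and Mt1 with Mt2 is at 0.90 in both.

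The genes most like each member were taken over all 7131 genes by the lower r of the libraries. Gpx3 was most like Pde4a, the basement membrane gene Nid1 and Gng11 (0.94, 0.94 and 0.93), and Gpx8 most like the elastic fibre gene Efemp2, Shisa5 and the class I light chain B2m (0.95, 0.94 and 0.94). Gpx7 was most like the signal peptidase subunit Spcs1, the actin-binding Dbn1 and the matrix gene Sparc (0.92, 0.89 and 0.89). Gpx4 was most like the mitochondrial dehydrogenase subunit Idh3g, 1190007I07Rik and the chaperone Hsp90ab1 (0.91, 0.90 and 0.90). Gpx1 was like the cytoskeletal genes Csrp1 and Pfn1 (0.95 and 0.88).

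For the remaining genes the likeness was lower. Of all genes tested, Mt1 was most like Mt2 (0.90), then Mif and the glycolytic enzyme Gpi1 (0.86 and 0.82), and Mt2 was most like Mt1 (0.90), then the glycolytic enzyme Pkm and Mif (0.85 and 0.81). Mt3 was most like Igfbpl1, Prok2 and Zbtb12 (0.87, 0.83 and 0.81). Igfbpl1 and Prok2 are among the leading genes of the Cytl1 state. Gsto1 was most like Eno3, Agpat4 and Tmem70 (0.83, 0.82 and 0.82).

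The enzymes that make and recycle glutathione were mixed in the pluripotent-like state: of 8 tested, 4 rose, 2 fell and 2 did not pass, with a median of 0.26 on the log2 scale against -0.13 over all genes, of which 32.3% rose and 44.8% fell. Ggct, which breaks down gamma-glutamyl peptides, was at 0.519 and 0.521 per 10000 UMIs, above all other states (highest 0.214 and 0.230), a log2 fold of 1.33 ± 0.11 (adjusted p = 1.7e-09, limma). Gsr, the glutathione reductase, was at 0.882 and 0.788 against medians of 0.587 and 0.548 (0.57 ± 0.11). It was inside the range of the other states, which reached 0.906 and 0.878. The NADPH-producing enzymes G6pdx and Idh1 were lower, with log2 folds of -0.43 ± 0.11 and -0.31 ± 0.11, though Idh1 did not pass with profiles centred on the median gene (-0.17, adjusted p = 0.18, limma).

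Superoxide dismutases and catalase, upstream and beside the peroxidases, gave 4 that rose and 1 that fell of 5 tested, with a median of 0.55, where 32.3% of all genes rose and 44.8% fell. Mitochondrial Sod2 was at 2.72 and 1.91 in the pluripotent-like state against at most 1.28 and 1.23 elsewhere, a log2 fold of 1.36 ± 0.09. Cytosolic Sod1 was at 2.12 and 2.46 against at most 1.66 and 1.79 (0.75 ± 0.10). Sod3, which like Gpx3 is secreted, was at 0.0689 and 0.0787 against medians of 0.625 and 0.694 (-2.21 ± 0.21). Both secreted enzymes and the summed fibroblast markers were thus low in the pluripotent-like state, and a link between them was not tested.

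The list of thioredoxins, peroxiredoxins, glutaredoxins and related genes gave 6 that rose, 8 that fell and 3 that did not pass of 17. Their median was -0.15, and the shares were near those of all genes, of which 32.3% rose and 44.8% fell. Txn1 rose by 0.70 ± 0.08 and Txnl1 by 0.65 ± 0.09, and the peroxiredoxin Prdx5 and the thioredoxin inhibitor Txnip had log2 folds of -1.22 ± 0.09 and -1.10 ± 0.11. Txn1 and Txnl1 were above every other state in replicate 1. In replicate 2 they were at 7.39 and 1.45, and other states reached 9.01 and 1.56. Glutathione transferases were mostly lower: of 15, 13 fell, 1 rose and 1 did not pass, with a median of -0.80, where 44.8% of all genes fell and 32.3% rose. The microsomal transferase Mgst1 was at 0.199 and 0.209 in the pluripotent-like state and at least 1.44 and 1.47 in every other state (-3.63 ± 0.11, adjusted p = 6.3e-16, limma). Gstm5 was at 0.169 and 0.245 against at least 1.21 and 1.36 (-3.09 ± 0.10). Gsta4, which acts on lipid aldehydes, was the exception at 3.58 and 3.23 (0.81 ± 0.14), inside the range of the other states, and it did not pass with the other cells pooled (0.20, adjusted p = 0.061, limma).

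Regulators and targets of NRF2, the transcription factor of the antioxidant response, gave 4 that rose, 9 that fell and 3 that did not pass of 16, with a median of -0.32, where 32.3% of all genes rose and 44.8% fell. Taldo1 of the pentose phosphate pathway and the reductase Blvrb had log2 folds of 1.24 ± 0.11 and 0.65 ± 0.10. Blvrb, at 0.709 and 1.14, was inside the range of the other states, which reached 0.940 and 1.38. The exporter Abcc1 and the autophagy receptor Sqstm1 had -1.16 ± 0.11 and -1.06 ± 0.10. Genes of zinc and copper handling gave 1 that rose, 9 that fell and 3 that did not pass of 13, with a median of -0.61, against the same shares over all genes. The riser was Mtf1, the metal-sensing regulator of metallothionein genes, at 0.183 and 0.234 against at most 0.148 and 0.138 elsewhere (0.54 ± 0.11, adjusted p = 1.8e-04, limma). The zinc importers Slc39a1 and Slc39a14 had -1.76 ± 0.10 and -1.53 ± 0.15. For Slc39a14 the value was -2.07 without replicate 1 and -0.98 without replicate 2, and for Mtf1 it was 0.75 and 0.34.

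Gpx1, Gpx2, Gpx3 and Gpx4 carry selenocysteine, so the selenocysteine machinery and other selenoproteins were followed too. Of 15 tested, 4 rose, 9 fell and 2 did not pass, with a median of -0.59, where 32.3% of all genes rose and 44.8% fell. The machinery genes Sephs2, which makes selenophosphate, and Eefsec, the elongation factor for selenocysteine, had log2 folds of 1.34 ± 0.12 and 0.75 ± 0.11, and both were above every other state in both libraries. The secreted selenoprotein Sepp1 and the endoplasmic reticulum protein Selm were far lower, at -2.79 ± 0.12 and -2.47 ± 0.13. Of further genes of the families, Gpx6 and Mt4 were in the table, but neither reached the level tested.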

How the data were processed

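The libraries were made with 10x 3′ version 2 chemistry. According to the study's methods and the submitters' processing notes, the authors counted reads with Cell Ranger (version 2.1.1, mm10), kept cells by detected genes and mitochondrial share, and normalised in Seurat. The sources used here do not state any removal of doublets, and no doublet caller was run. The deposited values are natural log values, ln(1 + UMIs of a gene per 10000 of its cell). Back-transformed, 100% of the values were whole multiples of 1 UMI within 0.01, cells had 1508 to 5987 genes and 4753 to 60990 UMIs, and no column was left unassigned.

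The members and lists were chosen with earlier results of these data known. Clustering (scanpy version 1.11.5, leidenalg version 0.10.2) used 2000 variable genes, 30 components, 15 neighbours and resolution 1, without 732 genes including the members. States with over 50% and at least 3 markers of a class 2-fold up took its name, unless their 10 leading genes held more markers of another class. The deposited values are logs, and no count model was used, although UMI counts could be recovered from them. Profiles (mean linear level per state and library, 28 in all) were tested with limma (version 3.58.1) as log2(level + 0.1). The terms were state and library, and the fit was first checked on simulated data. The error of a gene was its residual spread over all states in the fit, after the average shift between the libraries was taken out. States thus shared 1 estimate of the spread, with a median of 19.3 degrees of freedom, though there were only 2 libraries. The fits with the other cells pooled, or with cells chosen by markers, held only 2 states. Their p-values rest mainly on the spread that limma shares over all genes. The choice by markers took 80 and 175 cells, so some cells of the pluripotent-like state were counted among the others. A log2 fold on this scale understates the change of low genes. Neighbouring states were called apart where the ranges of their libraries did not overlap. Named were the 10 genes, up to 2 risers and 2 fallers of each list, the 3 genes most like each gene tested, and leading genes of states. One of the genes most like Gpx1 is not reported here. Counting intervals are exact Poisson (levels), binomial (shares) and log-normal (ratio) at 95%, and a count of 0 allows 3. Apart from Mt2 and Mt1, levels of different genes were not tested against each other, and how evenly genes were captured was not examined. Near copies were searched with blastn (version 2.17.0+) among GENCODE M21 transcripts, with the last 400 bases of each transcript.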

Additional observations from a re-analysis of the deposited data

How the results depend on the processing

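Over the 14 fits, Gpx4 and Mt2 rose and Gpx1, Gpx3, Gpx7, Gpx8 and Gsto1 fell in each, with log2 folds from 0.90 to 1.19 for Gpx4, 1.01 to 1.59 for Mt2, -0.68 to -0.47 for Gpx1, -3.29 to -1.18 for Gpx3, -1.09 to -0.30 for Gpx7, -3.32 to -0.59 for Gpx8 and -1.13 to -0.54 for Gsto1. Mt1 and Mt3 changed sign: Mt1 was -0.17 (adjusted p = 0.23, limma) with cells chosen by markers, and Mt3 was 0.02 (adjusted p = 0.94, limma) at a clustering resolution of 0.5. The cause was not tested. With no filter on low values 4635 of 17386 genes rose, in place of 2305 of 7131, and Gpx2 was among them at a log2 fold of 1.77. More genes were tested there. In the 13 other states Gpx2 was at most 0.0427 per 10000 UMIs, below the 0.1 added before the log. The fold and the spread of Gpx2 therefore rest on that added value, and no p-value is given for it. The number of genes at least 2-fold apart between the libraries was 3, and 21 with 0.01 added before the log and 6 in cells of 10000 to 20000 UMIs. Gsta4 did not pass with cells chosen by markers (0.20, adjusted p = 0.13) or of 15000 to 30000 UMIs (0.34, adjusted p = 0.090), nor Idh1 in the latter (-0.26, adjusted p = 0.080), all with limma. The limits of 15000 to 30000 UMIs, and a fit without the cycling states, were chosen after seeing the data. In replicate 2 alone and replicate 1 alone, Gpx4 gave 1.24 and 0.86, Mt2 1.31 and 1.58, Mt1 0.16 and 0.45, and Mt3 0.05 and -0.65, with no test. The states were compared within libraries, with the library as a term in each fit. Depth limits Gpx8, Mt3 and Gpx2, which rest on few UMIs in several states, and with 18 pluripotent-like cells of 10000 to 20000 UMIs in replicate 1 that contrast could not be fitted at this depth.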

Other observations

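In the macrophage-like cells, only 4 and 9 in number, Gpx1 was at 5.69 and 16.2 per 10000 UMIs in replicates 1 and 2, but the median cell of replicate 2 had 5.51. In the state led by Trf, Gpx8 had a mean of 1.02 and Gpx3 of 1.21 per 10000 UMIs in the 42 cells of replicate 2. These values rest on 1 library and few cells, and no test was made.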
